A study of Homo sapiens with 12 samples.

Results

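Genes of glycolysis and of the response to low oxygen were followed, 37 in all. Of these, 17 are glycolytic enzymes and 20 are other genes that the hypoxia-inducible factors (HIF) are known to control. Members were found by their symbol among the transcript clusters of the array that the platform annotation gives a single gene, and 34 of the 37 were measured this way, among 18417 genes in all. PGAM1 was not used because its 5 clusters are shared with other genes, and SLC16A3 and CA9 had no cluster annotated with a single gene. That left 16 glycolytic enzymes and 18 other members. The cells were NCCIT, a human embryonal carcinoma line with features of pluripotent cells, transfected with siRNA pools against WDR5 (siWDR5), EED (siEED), RNF2 (siRNF2), both EED and RNF2 (siEED+RNF2) or SETD2 (siSETD2), or with a non-targeting siRNA (siNTC) as the control for all of them. WDR5 is a core subunit of the MLL/COMPASS complexes that methylate histone H3 at lysine 4, EED is a subunit of the PRC2 polycomb complex, RNF2 is the ubiquitin ligase of PRC1, and SETD2 trimethylates histone H3 at lysine 36. A knockdown lowers its target without deleting it, every group here is the same cell line, and 2 arrays were available for each of the 6 groups. Neither the labels nor the paper's methods name a low-oxygen treatment of any group.

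Glycolysis turns glucose into pyruvate, and lactate dehydrogenase turns pyruvate into lactate when mitochondria do not use it. When oxygen is short, prolyl hydroxylases no longer mark HIF alpha subunits for destruction by the VHL ubiquitin ligase, and HIF binds the hypoxia response element of its targets. These targets raise glucose uptake and glycolysis, hold pyruvate back from mitochondria, remove mitochondria by mitophagy and change the extracellular matrix. Pluripotent and germ cell tumour cells are known for a high rate of glycolysis also when oxygen is present.

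The values were deposited on the log2 scale, so a difference of 1 is a doubling, and since probes differ in how well they bind, levels of different genes were not ranked against each other. Values ran from 3.18 to 15.01, and the median of an array was 6.29 to 6.36. Replicate arrays correlated at 0.996 to 0.997, above the highest correlation between groups, 0.9952. The siSETD2 and siNTC arrays stood further from the rest, their best match in another group being 0.9898 to 0.9905, while that of any other array was 0.9934 or more. As a check of the labels, each siRNA target that was measured fell: WDR5 was at 43.1% of siNTC in siWDR5, EED was at 40.8% in siEED and 32.7% in siEED+RNF2, and SETD2 was at 29.7% in siSETD2, while the level of RNF2 was not analysed here. EED was also below siNTC in the other knockdowns, at 69.0% in siWDR5, 63.2% in siRNF2 and 74.6% in siSETD2. Of 8 pluripotency markers 5 were measured (SOX2, LIN28A, DPPA4, SALL4 and DNMT3B), with means over all arrays of 10.88 to 12.68. In RNA from a whole culture, fewer cells that express a gene and less RNA per cell cannot be told apart. Nothing in the sources used here says whether replicate arrays came from separate cultures, so a p-value reflects the spread between single arrays only, and having 2 of them per group limits the precision. A gene was called higher or lower at a fold change of at least 1.5 (0.58 on the log2 scale) and a Benjamini-Hochberg adjusted p under 0.05 over all 18417 genes. By this rule LIN28A was lower under siWDR5 (log2 change -0.68), DNMT3B under siRNF2 (-0.71) and siEED+RNF2 (-0.62), and DPPA4 was higher under siSETD2 (0.59). Of the measured markers of endoderm, trophoblast, fibroblasts and blood, 0 were higher in a knockdown, while POSTN was lower in all 5 (-0.90 to -0.68), HAND1 under siWDR5 (-1.59), siEED (-0.81) and siSETD2 (-1.94), and TFAP2A under siWDR5 (-0.64) and siSETD2 (-1.61). Their part in the changes of the glycolysis and hypoxia genes was not tested.

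The promoters of the members on which the results turn are printed first, to show where the short motif that HIF recognises occurs in them. Each run of 300 bases covers 250 bases before and 50 after the start site that RefSeq gives (GRCh38.p14), written 5′ to 3′ on the strand of the gene. Capitals mark the core of the hypoxia response element, ACGTG or GCGTG on either strand, and overlapping matches were merged into 1 site. LDHA (chr11:18394313-18394612, + strand), PFKFB3 (chr10:6202682-6202981, + strand, the second of its 2 windows), PFKFB4 (chr3:48556754-48557053, - strand), BNIP3 (chr10:131981874-131982173, - strand), ADM (chr11:10304823-10305122, + strand) and P4HA2 (chr5:132227042-132227341, - strand) are shown. LDHA and P4HA2 had the widest ranges of group means among the enzymes and among all members, and the other 4 are the genes listed as markers of the set.
LDHA: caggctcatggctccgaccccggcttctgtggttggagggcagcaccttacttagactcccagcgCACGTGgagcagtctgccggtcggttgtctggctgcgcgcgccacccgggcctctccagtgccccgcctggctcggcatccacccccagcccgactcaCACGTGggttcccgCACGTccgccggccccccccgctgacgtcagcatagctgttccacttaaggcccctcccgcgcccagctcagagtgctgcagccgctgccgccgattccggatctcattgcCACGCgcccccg
PFKFB3: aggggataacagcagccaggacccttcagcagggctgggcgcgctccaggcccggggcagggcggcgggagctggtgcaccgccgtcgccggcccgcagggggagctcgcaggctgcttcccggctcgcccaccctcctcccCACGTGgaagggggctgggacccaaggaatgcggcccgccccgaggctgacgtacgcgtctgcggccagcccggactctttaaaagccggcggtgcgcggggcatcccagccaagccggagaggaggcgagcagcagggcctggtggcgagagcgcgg
PFKFB4: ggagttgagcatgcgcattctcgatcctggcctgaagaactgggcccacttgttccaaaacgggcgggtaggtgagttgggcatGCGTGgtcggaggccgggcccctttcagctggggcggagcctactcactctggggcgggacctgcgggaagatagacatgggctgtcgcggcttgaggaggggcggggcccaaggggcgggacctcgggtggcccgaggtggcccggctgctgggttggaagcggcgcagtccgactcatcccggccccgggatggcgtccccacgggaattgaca
BNIP3: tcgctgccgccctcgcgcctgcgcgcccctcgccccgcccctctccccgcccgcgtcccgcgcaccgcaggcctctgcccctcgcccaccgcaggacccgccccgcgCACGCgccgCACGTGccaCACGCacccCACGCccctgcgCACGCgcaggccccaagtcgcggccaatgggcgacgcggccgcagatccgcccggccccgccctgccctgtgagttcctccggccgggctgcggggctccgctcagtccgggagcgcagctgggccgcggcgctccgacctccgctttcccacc
ADM: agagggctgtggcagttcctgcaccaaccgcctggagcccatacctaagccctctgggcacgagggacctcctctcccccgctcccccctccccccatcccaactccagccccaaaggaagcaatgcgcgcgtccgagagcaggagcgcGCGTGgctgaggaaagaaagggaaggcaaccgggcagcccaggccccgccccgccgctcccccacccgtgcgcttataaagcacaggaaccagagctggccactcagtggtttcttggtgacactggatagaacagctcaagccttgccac
P4HA2: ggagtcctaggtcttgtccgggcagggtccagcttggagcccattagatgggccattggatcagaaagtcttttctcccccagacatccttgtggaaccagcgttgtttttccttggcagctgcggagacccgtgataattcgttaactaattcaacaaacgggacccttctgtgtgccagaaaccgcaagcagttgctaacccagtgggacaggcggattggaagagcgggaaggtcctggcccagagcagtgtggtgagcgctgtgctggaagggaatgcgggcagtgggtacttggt

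These windows differed in the number of core sites. LDHA held 4 of them, 2 of which lie within the palindrome CACGTG, the E-box that MYC and other factors also bind. BNIP3 held 5, all between 143 and 104 bases before its start. PFKFB3, PFKFB4 and ADM held 1 each, and the window of P4HA2 held 0. RefSeq windows were found for 33 of the 37 listed members, and 29 of these 33 genes (87.9%) had a core site in at least 1 window, against 62.8% of 14239 measured genes with windows. Counted by window, 41 of 63 member windows (65.1%) had one, against 55.1% of 20109 windows of measured genes. Genes with more start sites have more windows and so more chances of a match. Split by role, 62.2% of 37 windows of glycolytic enzymes and 69.2% of 26 windows of other members had one. By gene the order was reversed, with 16 of 17 enzymes (94.1%) and 13 of 16 other members (81.2%). CACGTG was in 12.7% of member windows and 8.3% of the windows of measured genes. A match describes these letters and not the binding of a factor.

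Across the 5 knockdowns, 9 of the 34 measured members were called against siNTC at least once and 25 were not called in any. The 9 comprised 2 of 16 glycolytic enzymes, ENO2 and LDHA, and 7 of 18 other members, PFKFB1, PFKFB2, PFKFB3, PFKFB4, BNIP3, P4HA2 and ADM. How many of all genes were called at least once was not counted. In a single knockdown 5.82% to 11.5% of all genes were called, so these counts alone do not show an excess. The same siNTC arrays serve all of these comparisons, so a low or high value in them enters each one. Only their labels name a re-analysis. A separate run of these arrays cannot be told apart from a change that the knockdowns share. A second reference was therefore the mean of those knockdowns that share no siRNA target with the one compared, which is all 4 others for siWDR5 and siSETD2, siWDR5, siSETD2 and the other single polycomb knockdown for siEED and siRNF2, and siWDR5 and siSETD2 alone for siEED+RNF2. PFKFB3 and BNIP3 were called in siWDR5 and siSETD2, ENO2 in the 3 polycomb knockdowns (siEED, siRNF2 and siEED+RNF2), and P4HA2 in each of the 5.

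**Figure D1:**
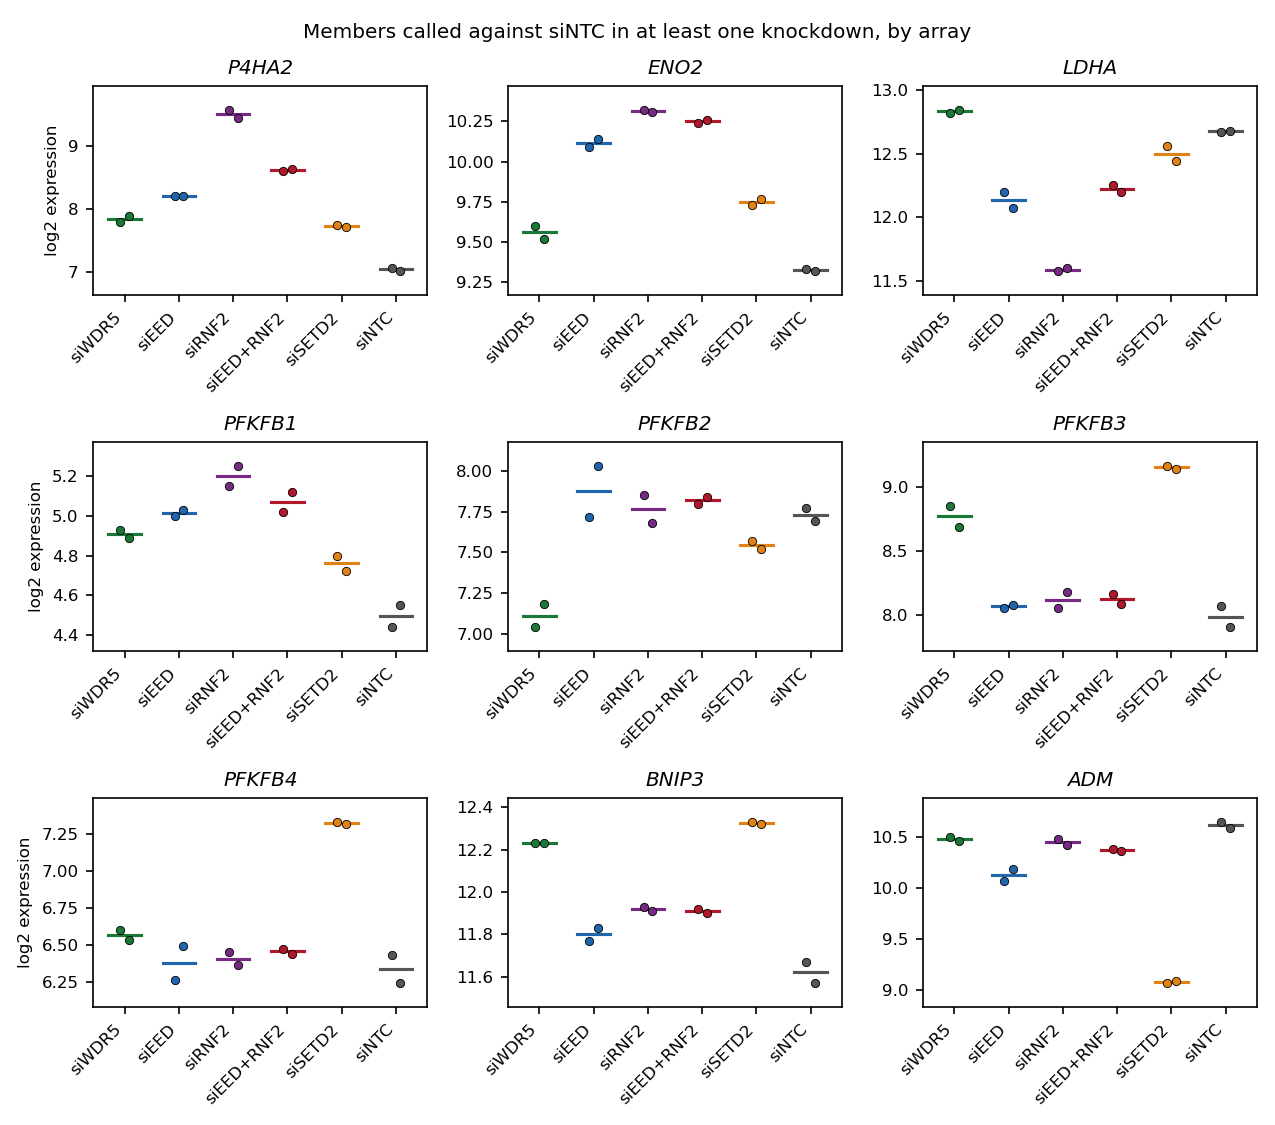
Log2 expression of the 9 members called against siNTC in at least 1 knockdown, 1 panel per gene with its own axis. Points are single arrays, 2 per group, and lines are the group means. PFKFB3 reached 9.16 and 9.14 in siSETD2 against 8.07 and 7.91 in siNTC, and ADM fell to 9.07 and 9.09 in siSETD2 against 10.65 and 10.59 in siNTC.

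Which members moved in which knockdown was asked first. In siWDR5, 3 members were higher (2.8% of all genes were) and 1 was lower (3.22%), all 4 of them outside glycolysis proper. The polycomb knockdown of EED gave 2 members higher (3.74%) and 0 lower (2.63%), that of RNF2 gave 3 higher (6.37%) and 1 lower (3.81%), and the dual one gave 2 higher (5.49%) and 0 lower (6.02%). With siSETD2, 4 members were higher (2.64%) and 1 was lower (3.18%). The share of members called in either direction was thus 11.8% in siWDR5, against 6.02% of all genes, and 14.7% in siSETD2, against 5.82%. It was 5.88% in siEED, against 6.37%, and 11.8% in siRNF2, against 10.2%, so in these the members were called about as often as other genes. It was 5.88% in siEED+RNF2, against 11.5%. Without the fold limit, 13 members passed the adjusted p upwards in siWDR5 (15.2% of all genes did) and 16 did so with siSETD2 (15.8%). Upwards 6 passed in siEED (16.5%), 8 after siRNF2 (20.9%) and 8 in the dual knockdown (20.6%). Downwards, 11 passed in siEED (18.9%), 11 after siRNF2 (22.1%), 9 in the dual knockdown (21.5%), 4 in siWDR5 (18.6%) and 4 with siSETD2 (15.8%).

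The arrays themselves were also compared without a fit. Under siWDR5, 25 of the 34 members had both arrays above both siNTC arrays (28.8% of all genes did) and 7 had both below (36.3%). Under siSETD2 these were 19 (31%) and 8 (33.7%). The order turned in the polycomb knockdowns, with 7 above (29.2%) and 19 below (37.8%) under siEED, and 8 above (31.4%) and 20 below (39.8%) under siRNF2. Under siEED+RNF2 the members were about even, 13 above (33%) and 14 below (36.4%). The glycolytic enzymes, 16 of the 34 members, made up 13 of the 20 that lay below under siRNF2. They made up 11 of the 25 that lay above under siWDR5, which is close to their share of the members.

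**Figure D2:**
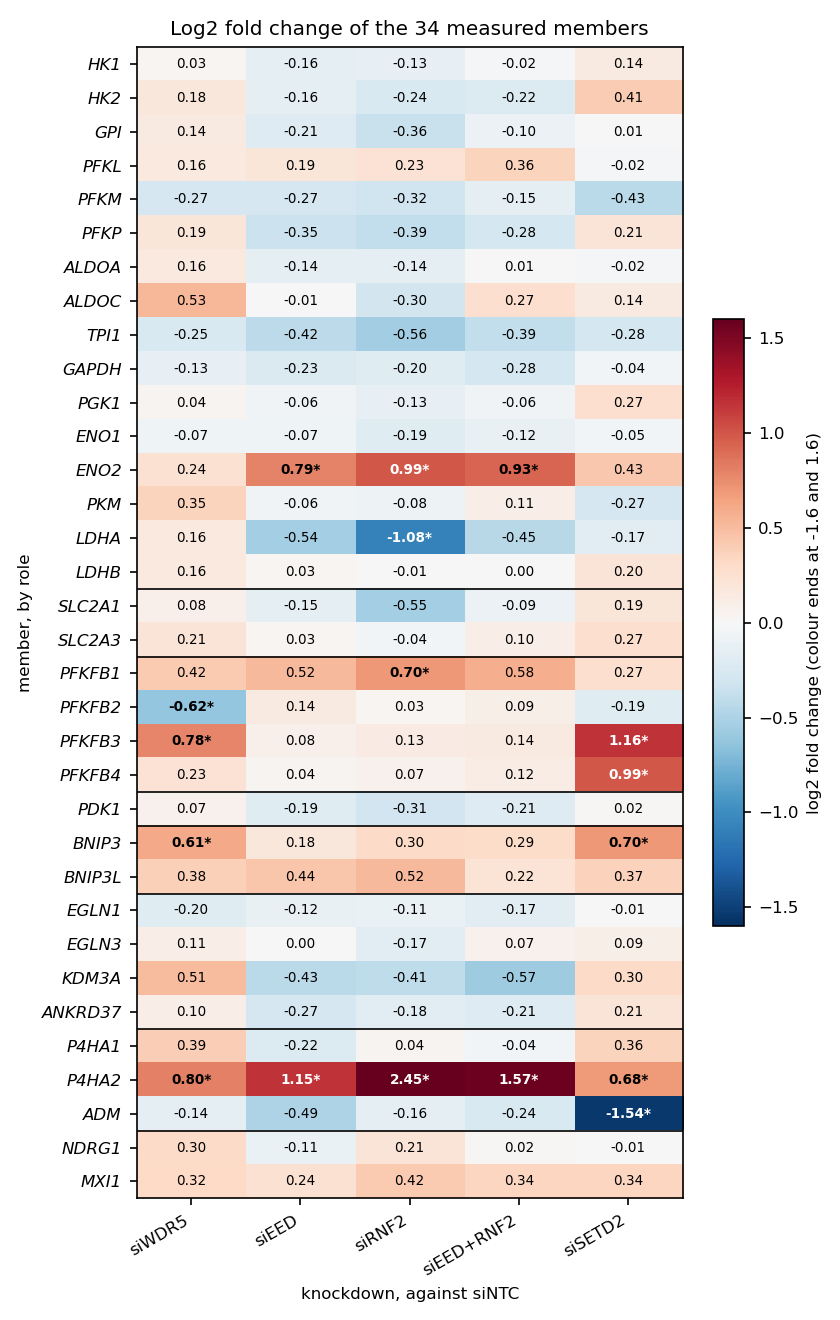
Log2 fold change of each of the 34 measured members (rows, by role, black lines between roles) in each knockdown against siNTC (columns), written in the cell. Red is higher and blue lower than siNTC, colours end at 1.6 in either direction, and bold values with a star were called. P4HA2 has a star in every column, and most of the cells of the glycolytic enzymes lie within the fold limit.

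The glycolytic enzymes and the other members were set apart next. The 16 enzymes had a median log2 change of 0.16 under siWDR5, -0.15 under siEED, -0.19 under siRNF2, -0.08 under siEED+RNF2 and 0.00 under siSETD2. The 18 other members had medians of 0.27, 0.02, 0.04, 0.08 and 0.27 in the same order, and the medians over all genes were -0.03, -0.03, -0.04, -0.02 and -0.01. So the other members lay above the enzymes in each knockdown, and the enzymes lay below all genes in the 3 polycomb knockdowns. The difference between the 2 sets was not tested. At the adjusted p alone, 10 of the 18 other members were higher and 2 lower in siWDR5 (15.2% and 18.6% of all genes were), 5 and 5 under siEED (16.5% and 18.9%), 6 and 3 under siRNF2 (20.9% and 22.1%), 5 and 5 under siEED+RNF2 (20.6% and 21.5%), and 12 and 1 under siSETD2 (15.8% and 15.8%). Of the 16 enzymes, 3 were higher and 2 lower under siWDR5, 1 and 6 under siEED, 2 and 8 under siRNF2, 3 and 4 under siEED+RNF2, and 4 and 3 under siSETD2, beside the same shares of all genes. These shifts were small: among enzymes not called, log2 changes ran from -0.56 (TPI1 in siRNF2) to 0.53 (ALDOC in siWDR5).

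**Figure D3:**
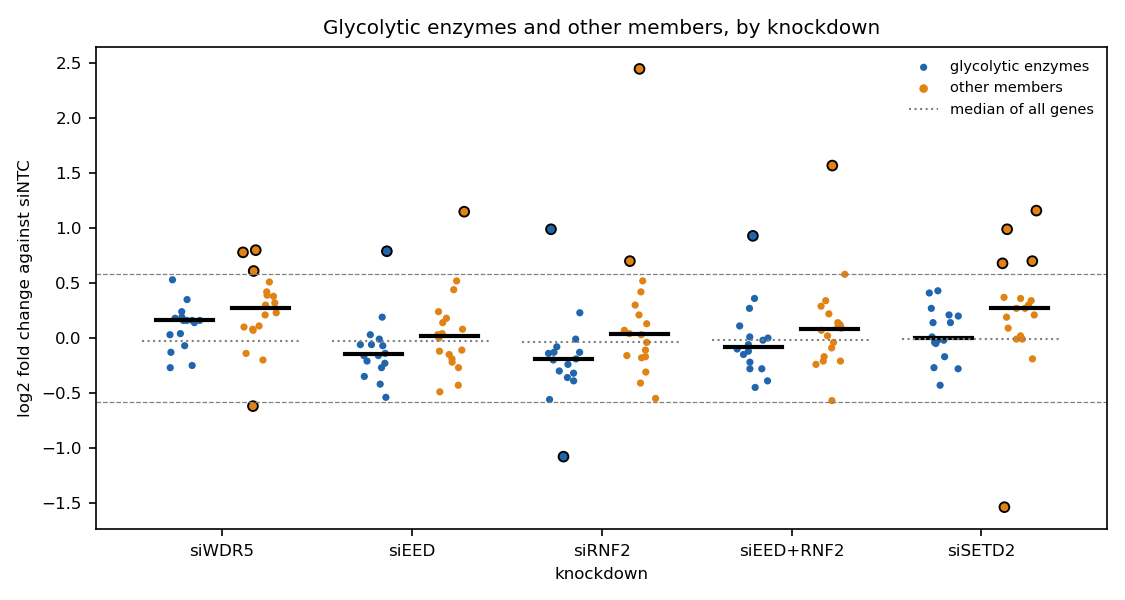
Log2 fold change against siNTC for the 16 glycolytic enzymes (blue) and the 18 other members (orange) in each knockdown. Each point is 1 gene, a black rim marks called genes, thick lines are the medians, the dotted line is the median of all genes, and dashed lines mark a fold of 1.5. The orange median is 0.27 in both siWDR5 and siSETD2, and the blue median is lowest in siRNF2 at -0.19.

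Among the enzymes LDHA, the A subunit of lactate dehydrogenase, had the widest range of group means. Its arrays read 12.82 and 12.84 in siWDR5, 12.20 and 12.07 in siEED, 11.58 and 11.60 in siRNF2, 12.25 and 12.20 in siEED+RNF2, 12.56 and 12.44 in siSETD2, and 12.67 and 12.68 in siNTC. The arrays of siRNF2 were the lowest of all, those of siEED and siEED+RNF2 met at 12.20, and those of siWDR5 were the highest. LDHA fell by 1.08 on the log2 scale in siRNF2, to 47.3% of siNTC (standard error 0.07, adjusted p = 2.7e-07). In siEED the log2 change was -0.54 (adjusted p = 8.4e-05) and in siEED+RNF2 it was -0.45 (adjusted p = 1.8e-04), both short of the fold limit. LDHB, the other subunit, had log2 changes between -0.01 and 0.20. LDHA had 4 core sites in the window printed above, the first of its 2, and 1 in the second. A window of HK2 and those of ALDOC and PGK1 also held 4, and these genes were not called against siNTC.

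ENO2, the enolase best known from neurons, went the other way. It read 9.60 and 9.52 in siWDR5, 10.09 and 10.14 in siEED, 10.32 and 10.31 in siRNF2, 10.24 and 10.26 in siEED+RNF2, 9.73 and 9.77 in siSETD2, and 9.33 and 9.32 in siNTC. All 6 arrays of the polycomb knockdowns were above all others. The fold change was 1.73 in siEED (adjusted p = 2.2e-06), 1.99 in siRNF2 (adjusted p = 2.1e-07) and 1.90 in siEED+RNF2 (adjusted p = 2.5e-07). With the second reference the log2 change was 0.24 in siEED and 0.51 in siRNF2, which ended both calls, and 0.59 in siEED+RNF2. ENO1, the enolase of most tissues, had log2 changes between -0.19 and -0.05 in the 5 knockdowns.

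The other enzymes are described in the order of the pathway. The hexokinases, which trap glucose in the cell, were not called: HK1 lay between -0.16 and 0.14, and HK2 had a log2 change of 0.41 in siSETD2 (adjusted p = 0.014) and -0.24 in siRNF2. GPI, the isomerase of the second step, ranged from -0.36 to 0.14. The subunits of phosphofructokinase, the enzyme that commits sugar to glycolysis, did not follow each other, with PFKM at -0.43 in siSETD2 (adjusted p = 6.1e-04), PFKL at 0.36 in siEED+RNF2, and PFKP at 0.19 in siWDR5 and -0.39 in siRNF2. Of the aldolases, ALDOA stayed between -0.14 and 0.16, whereas ALDOC had 0.53 in siWDR5 (adjusted p = 2.1e-04) and -0.30 in siRNF2 (adjusted p = 0.0063).

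TPI1, which interconverts the 3-carbon sugars, is the member with 2 single-gene clusters. The brighter one read 13.08 and 13.00 in siWDR5, 12.85 and 12.88 in siEED, 12.75 and 12.71 in siRNF2, 12.86 and 12.92 in siEED+RNF2, 13.00 and 13.01 in siSETD2, and 13.26 and 13.31 in siNTC. Both siNTC arrays were thus above all 10 knockdown arrays, with a log2 change of -0.56 in siRNF2 (adjusted p = 1.8e-05). The second cluster read 10.38 and 10.41 in siRNF2 and 11.03 and 11.10 in siNTC, and with the mean of both clusters TPI1 was called lower in siRNF2. GAPDH, which is often used to scale RNA measurements, had log2 changes of -0.13 under siWDR5, -0.23 under siEED (adjusted p = 0.012), -0.20 under siRNF2 (adjusted p = 0.022), -0.28 under siEED+RNF2 (adjusted p = 0.0036) and -0.04 under siSETD2. PGK1, the first step that yields ATP, had 0.27 in siSETD2 (adjusted p = 0.003) and -0.13 in siRNF2. PKM, the pyruvate kinase, had 0.35 in siWDR5 (adjusted p = 0.0012) and -0.27 in siSETD2 (adjusted p = 0.0059).

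Glucose enters by the transporters SLC2A1 (GLUT1) and SLC2A3 (GLUT3). SLC2A1 read 10.94 and 10.97 in siRNF2 and 11.52 and 11.50 in siNTC, and no other group had an array below 11.35. Its log2 change in siRNF2 was -0.55 (adjusted p = 1.6e-05), just short of the fold limit. SLC2A3 had changes between -0.04 and 0.27, and neither transporter was called.

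The PFKFB genes encode the enzymes that make and break fructose 2,6-bisphosphate, the strongest activator of phosphofructokinase, and each of the 4 was called in 1 or more knockdowns. PFKFB3, whose kinase activity far exceeds its phosphatase activity, read 8.85 and 8.69 in siWDR5, 8.06 and 8.08 in siEED, 8.06 and 8.18 in siRNF2, 8.17 and 8.09 in siEED+RNF2, 9.16 and 9.14 in siSETD2, and 8.07 and 7.91 in siNTC. Only the arrays of siSETD2 and siWDR5 exceeded 8.18. The fold change was 1.72 in siWDR5 (log2 0.78, standard error 0.08, adjusted p = 2.3e-05) and 2.23 in siSETD2 (log2 1.16, standard error 0.08, adjusted p = 1.3e-06). With the second reference the log2 change was 0.40 in siWDR5, below the fold limit, and 0.88 in siSETD2. In the polycomb knockdowns its log2 change against siNTC was between 0.08 and 0.14.

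PFKFB4, known as the testis form and as a HIF target in many lines, was called in siSETD2 alone among the 5 comparisons. It read 6.60 and 6.53 in siWDR5, 6.26 and 6.49 in siEED, 6.45 and 6.36 in siRNF2, 6.47 and 6.44 in siEED+RNF2, 7.33 and 7.32 in siSETD2, and 6.43 and 6.24 in siNTC. The siSETD2 arrays stood clear of the other 10. The fold change was 1.98 (log2 0.99, standard error 0.09, adjusted p = 7.1e-06). PFKFB2, the heart form, read 7.04 and 7.18 in siWDR5, 7.72 and 8.03 in siEED, 7.85 and 7.68 in siRNF2, 7.80 and 7.84 in siEED+RNF2, 7.57 and 7.52 in siSETD2, and 7.77 and 7.69 in siNTC. The siWDR5 arrays were the lowest, with a log2 change of -0.62 (adjusted p = 5.2e-04). Without siWDR5 replicate 1 that change was -0.55, and without siNTC replicate 1 it was -0.58, which ended the call. PFKFB1, the liver form, read 4.93 and 4.89 in siWDR5, 5.00 and 5.03 in siEED, 5.15 and 5.25 in siRNF2, 5.02 and 5.12 in siEED+RNF2, 4.80 and 4.72 in siSETD2, and 4.44 and 4.55 in siNTC. These values are near the low end of the array's range, and the siRNF2 arrays were the highest, 1.63-fold above siNTC (adjusted p = 9.4e-06). With the second reference that log2 change was 0.30, below the fold limit.

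PDK1, the kinase that keeps pyruvate out of the mitochondrial pyruvate dehydrogenase, had log2 changes between -0.31 (siRNF2, adjusted p = 0.0018) and 0.07. BNIP3 and BNIP3L are receptors that mark mitochondria for mitophagy. BNIP3 read 12.23 and 12.23 in siWDR5, 11.77 and 11.83 in siEED, 11.93 and 11.91 in siRNF2, 11.92 and 11.90 in siEED+RNF2, 12.33 and 12.32 in siSETD2, and 11.67 and 11.57 in siNTC. The siWDR5 and siSETD2 arrays were the highest 4, and the siNTC arrays the lowest 2. BNIP3 was 1.53-fold higher in siWDR5 (adjusted p = 1.9e-05) and 1.63-fold higher in siSETD2 (adjusted p = 6.1e-06). Without siNTC replicate 2 the log2 change in siWDR5 was 0.56 rather than 0.61, below the fold limit, and with the second reference it was 0.24 in siWDR5 and 0.36 in siSETD2, so neither was called. BNIP3L read 10.55 on both siNTC arrays and 10.76 to 11.11 on the knockdown arrays, with log2 changes of 0.38 under siWDR5, 0.44 under siEED, 0.52 under siRNF2, 0.22 under siEED+RNF2 and 0.37 under siSETD2, none past the fold limit.

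The members of the oxygen-sensing feedback were not called against siNTC. EGLN1 and EGLN3, the prolyl hydroxylases, had log2 changes between -0.20 and 0.11. KDM3A, a histone H3 lysine 9 demethylase that HIF induces, read 10.05 and 10.08 in siWDR5, 9.08 and 9.16 in siEED, 9.13 and 9.17 in siRNF2, 9.01 and 8.95 in siEED+RNF2, 9.82 and 9.90 in siSETD2, and 9.60 and 9.51 in siNTC. The siWDR5 and siSETD2 arrays lay above siNTC and the 6 polycomb arrays below it, without overlap. Its log2 change was 0.51 in siWDR5 (adjusted p = 1.1e-04) and 0.30 in siSETD2 (adjusted p = 0.0038), against -0.43 in siEED (adjusted p = 3.1e-04), -0.41 in siRNF2 (adjusted p = 3.2e-04) and -0.57 in siEED+RNF2 (adjusted p = 2e-05). ANKRD37 lay between -0.27 and 0.21.

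P4HA2, a subunit of the prolyl hydroxylase that prepares collagen, had the widest spread of all members. It read 7.79 and 7.89 in siWDR5, 8.20 and 8.20 in siEED, 9.56 and 9.43 in siRNF2, 8.60 and 8.63 in siEED+RNF2, 7.74 and 7.72 in siSETD2, and 7.07 and 7.02 in siNTC. No group overlapped another. The fold change was 1.74 in siWDR5 (adjusted p = 5.7e-06), 2.23 in siEED (adjusted p = 2.5e-07), 5.45 in siRNF2 (log2 2.45, standard error 0.07, adjusted p = 3.7e-10), 2.97 in siEED+RNF2 (adjusted p = 1.1e-08) and 1.61 in siSETD2 (adjusted p = 1.5e-05). These 5 values share the siNTC arrays, which were the lowest in the study. With the second reference, the log2 change of P4HA2 was -0.67 under siWDR5, -0.15 under siEED, 1.57 under siRNF2 and -0.81 under siSETD2, and it was 0.83 in siEED+RNF2, whose reference leaves out both single polycomb knockdowns. P4HA1, a second catalytic subunit, was not called, with 0.39 in siWDR5 (adjusted p = 6.9e-04) and 0.36 in siSETD2 (adjusted p = 0.0014).

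ADM, the secreted vasodilator peptide adrenomedullin, was the member that fell most. It read 10.50 and 10.46 in siWDR5, 10.07 and 10.19 in siEED, 10.48 and 10.43 in siRNF2, 10.39 and 10.37 in siEED+RNF2, 9.07 and 9.09 in siSETD2, and 10.65 and 10.59 in siNTC. The siSETD2 arrays were apart from the other 10 by more than the range of those 10. ADM fell by 1.54 on the log2 scale in siSETD2, to 34.4% of siNTC (standard error 0.06, adjusted p = 2.5e-08). So in siSETD2 it went down where PFKFB3, PFKFB4 and BNIP3 went up. NDRG1 lay between -0.11 and 0.30, and MXI1, which opposes MYC, between 0.24 and 0.42, with adjusted p of 3.9e-04 to 0.015 and no call.

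How far the knockdowns differed from each other was tested in the same fit, in comparisons of group means that leave siNTC out. The siNTC arrays still entered the estimate of the variance. Between siWDR5 and siEED, 4 members were higher in siWDR5 (1.1% of all genes were) and 1 was lower (2.23%). They were KDM3A (log2 difference 0.94, adjusted p = 2.9e-06), LDHA (0.70, adjusted p = 3e-05), PFKFB3 (0.70, adjusted p = 9.6e-05) and P4HA1 (0.61, adjusted p = 6.1e-05), with PFKFB2 lower (-0.76, adjusted p = 2.4e-04). At the adjusted p alone 16 members were higher in siWDR5 (8.56% of all genes were) and 3 lower (11.6%), the 3 being ENO2, PFKFB2 and P4HA2.

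Between siSETD2 and the mean of the other 4 knockdowns, 2 members were higher (2.57% of all genes were), PFKFB3 (0.88, adjusted p = 6.9e-07) and PFKFB4 (0.87, adjusted p = 1.3e-06). Another 2 were lower (3.34%), P4HA2 (-0.81, adjusted p = 3e-07) and ADM (-1.28, adjusted p = 4.8e-09). Against siWDR5 alone, siSETD2 was higher in PFKFB4 (0.76, adjusted p = 5.1e-05; 2.99% of all genes were higher) and lower in PKM (-0.62, adjusted p = 2.3e-05) and ADM (-1.40, adjusted p = 6.3e-08; 2.86% were lower). BNIP3 had a difference of 0.09 between them (standard error 0.06, adjusted p = 0.27) and PFKFB3 one of 0.38 (adjusted p = 0.003), neither called. The call of PKM was lost without siWDR5 replicate 1.

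**Figure D4:**
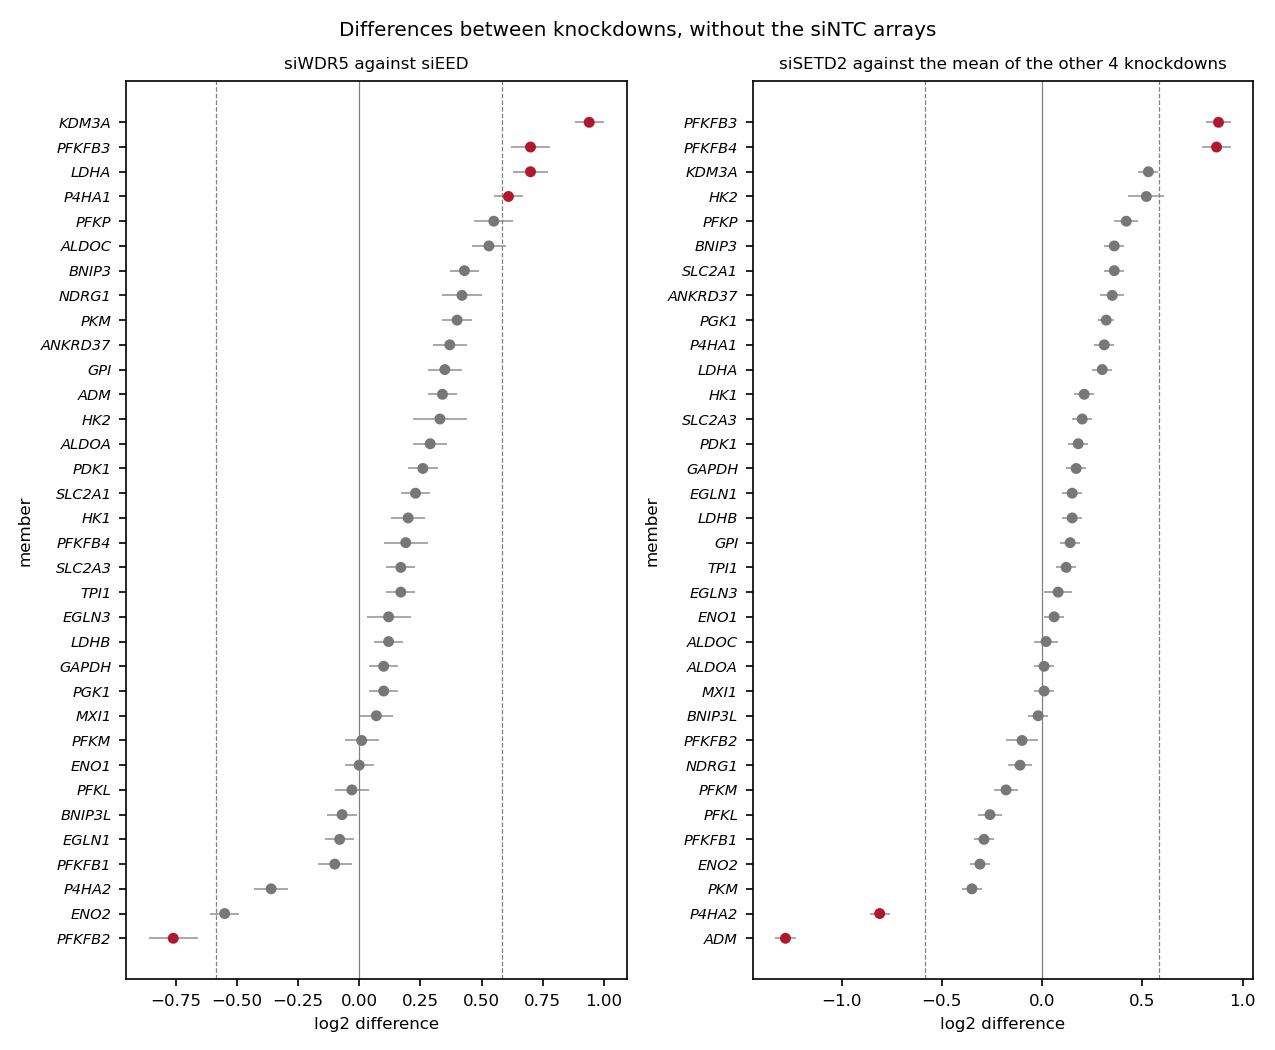
Log2 difference of each measured member in siWDR5 against siEED (left) and in siSETD2 against the mean of the other 4 knockdowns (right), sorted from high to low. Bars are standard errors, dashed lines mark a fold of 1.5, and red points were called. KDM3A leads the left panel at 0.94, and ADM closes the right one at -1.28.

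The dual knockdown was then compared with its parts. Between siEED+RNF2 and siEED, 0 members were called (0.157% of all genes were higher and 2.75% lower by limma), and 3 were higher (5.02%) and 1 lower (8.71%) at the adjusted p alone. Between siEED+RNF2 and siRNF2, LDHA was higher (0.63, adjusted p = 5.2e-05; 0.239% of all genes were) and P4HA2 lower (-0.88, adjusted p = 8.3e-06; 3.03% were). Between siRNF2 and siEED, P4HA2 was higher (1.29, adjusted p = 1.1e-06; 0.793% of all genes were) and 0 members were lower (0.467%). For LDHA and P4HA2 the dual knockdown thus lay nearer to siEED than to siRNF2. LDHA differed by 0.09 between siEED+RNF2 and siEED (standard error 0.07, adjusted p = 0.43).

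The interaction, the change in siEED+RNF2 minus the sum of the changes in siEED and siRNF2, was above 0 for 2 members (3.89% of all genes were called so) and below 0 for 4 (7.43%). P4HA2 had an interaction of -2.03 (standard error 0.09, adjusted p = 8.8e-08) and LDHA one of 1.17 (standard error 0.09, adjusted p = 7.2e-06), each against the direction of the single knockdowns. ENO2 had -0.86 (adjusted p = 2.6e-05), BNIP3L -0.74 (adjusted p = 9.4e-05), PFKFB1 -0.65 (adjusted p = 4.6e-04) and SLC2A1 0.61 (adjusted p = 2.2e-04). In all 6 the dual knockdown changed the gene by less than the single changes added up to. The siNTC arrays enter this term as well, and siNTC was the lowest group for P4HA2, ENO2, BNIP3L and PFKFB1. It was not the lowest for LDHA and SLC2A1. PFKFB3 (-0.07), PFKFB4 (0.01) and BNIP3 (-0.18) were not called in the interaction. By the paper's methods, the dual transfection used both siRNA pools and more reagent than a single one. No control matched to that load is named, so load and interaction cannot be told apart.

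**Figure D5:**
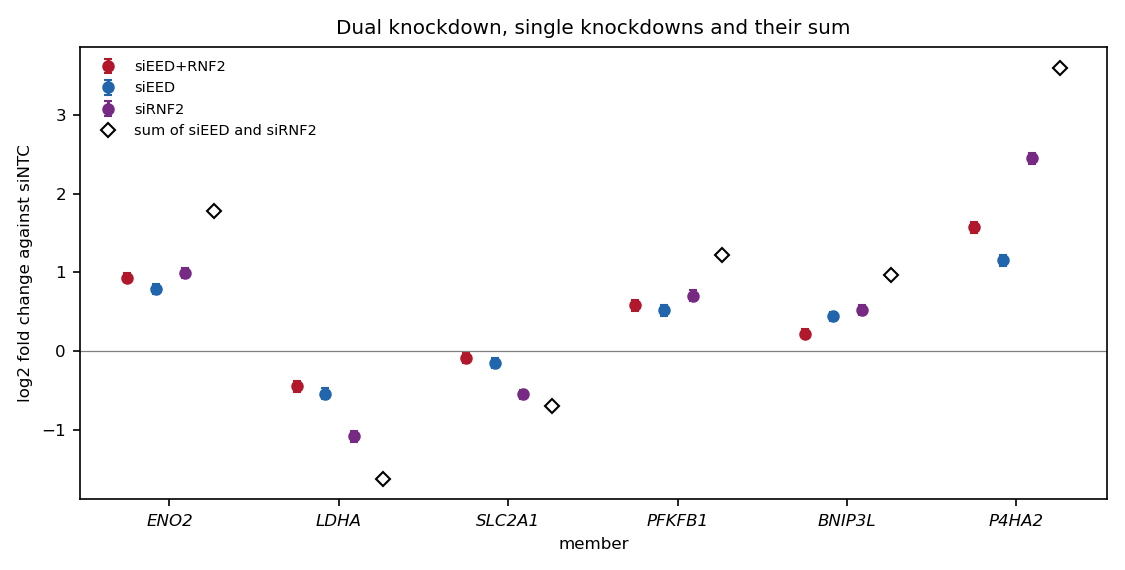
Log2 fold change against siNTC in siEED+RNF2 (red), siEED (blue) and siRNF2 (purple) for the 6 members whose interaction was called, with standard errors, and the sum of the 2 single changes (open diamond). For P4HA2 the dual change of 1.57 lies between the single changes of 1.15 and 2.45, far below their sum.

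Genes of the same pathways that are not members were read from lists beside them. Their changes share the siNTC arrays too, and the second reference was applied to members only. Of 14 HIF pathway regulators, VHL was higher in each comparison, with log2 changes of 0.88 under siWDR5, 1.12 under siEED, 1.37 under siRNF2, 1.26 under siEED+RNF2 and 0.63 under siSETD2. The arrays of VHL, the ligase that targets HIF alpha for destruction, ranged from 8.46 to 9.33 in the knockdowns and were 7.90 and 7.89 in siNTC. HIF1A, the oxygen-regulated subunit, had -0.01, -0.03, 0.02, -0.51 (adjusted p = 5.4e-05) and 0.16 in the same order and was not called. ARNT, its constant partner, had changes between -0.08 and 0.04. EPAS1, which encodes HIF-2 alpha, had -0.45 in siRNF2 (adjusted p = 0.0039) and was not called. CITED2 (-0.68), which competes with HIF for a coactivator, and ELOB (-0.89), a partner of VHL, were lower in siSETD2. Of the 14, 7.14% were called in each knockdown but that of SETD2, beside 6.02% to 11.5% of all genes. In siSETD2 21.4% were called, beside 5.82% of all genes.

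Of 24 further HIF targets, 2 were higher and 0 lower under siWDR5, 2 and 2 under siEED, and 2 and 2 under siRNF2. The counts were 3 and 2 under siEED+RNF2 and 3 and 1 under siSETD2. In either direction this was 8.33%, 16.7%, 16.7%, 20.8% and 16.7% of the list, in that order. Of all genes, 6.02%, 6.37%, 10.2%, 11.5% and 5.82% were called. The glycoprotein hormone STC2 was called higher under siWDR5 (1.47), under siEED (1.54), under siRNF2 (1.77) and under siEED+RNF2 (1.76). The lipoprotein receptor VLDLR was higher in the same 4 (1.76, 1.51, 1.54 and 1.63) and lower in siSETD2 (-0.85). BHLHE40 (0.98) and BHLHE41 (0.88), repressors of the clock genes, and HILPDA (0.80), a lipid droplet protein, were higher in siSETD2. TFRC, the transferrin receptor, was lower in siEED (-0.94), siRNF2 (-1.02) and siEED+RNF2 (-0.99).

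Of 19 genes of gluconeogenesis and glucose entry, PCK2, the mitochondrial enzyme that makes phosphoenolpyruvate, was called higher under siWDR5 (2.54), under siEED (3.09), under siRNF2 (3.68) and under siEED+RNF2 (3.50). FBP1, which reverses the phosphofructokinase step, was higher (1.19) and PC, the pyruvate carboxylase, lower (-0.66) in siSETD2. PYGL, a glycogen phosphorylase, was higher in siRNF2 (0.82) and siEED+RNF2 (0.69), and PGM2 was lower in siRNF2 (-0.75). Of 23 genes of pyruvate dehydrogenase and the citric acid cycle, DLAT, a subunit of that dehydrogenase, was lower in siEED (-0.63), siRNF2 (-0.94) and siEED+RNF2 (-0.60), and PDK2 was lower in siWDR5 (-1.23). SUCLG2 was higher in siRNF2 (1.04) and siSETD2 (0.84). Of 11 further isozymes and transporters, SLC16A7 was higher in siSETD2 (0.89), with 0 of 11 called in the other knockdowns. Of 6 pentose phosphate genes, PGLS was higher in siEED (0.64), siRNF2 (0.59) and siEED+RNF2 (0.66), and RPE was lower in siEED+RNF2 (-0.75). In the knockdown order used above, 5.26%, 5.26%, 15.8%, 10.5% and 10.5% of the gluconeogenesis list were called in either direction. The shares were 8.7%, 8.7%, 13%, 13% and 4.35% for the citric acid cycle list. For the pentose phosphate list they were 0%, 16.7%, 16.7%, 33.3% and 0%, and for the isozymes 9.09% in siSETD2. All stand beside the shares of all genes given above. AK4, SDHD and the trophoblast marker KRT18 were called too but are not described, because their cluster numbers lie among those of another chromosome than the gene. AK4 is still included in the counts and shares given for the further HIF targets, and SDHD in the shares of the citric acid cycle list. A position of this kind was found for 0 of the 34 members. A cluster was flagged only when most of its neighbours shared a single other chromosome. One among mixed neighbours, as may be so for the brighter TPI1 cluster, would be missed.

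Targets of ATF4, the factor of the amino acid and unfolded protein stress response, also moved with these groups. The list of 9 measured genes holds ATF4 itself, which was not called in any knockdown (0.03 to 0.48), and 8 targets. All 8 were higher in each knockdown but that of SETD2, where 1 was higher and 1 lower. Of the 9 genes, 88.9% were called in each of the first 4, beside 6.02% to 11.5% of all genes. In siSETD2 22.2% were, beside 5.82%. DDIT4, which HIF can induce as well, was called higher under siWDR5 (2.56), siEED (3.10), siRNF2 (3.35) and siEED+RNF2 (3.32), and also with siSETD2 (1.48). CHAC1 was higher in the first 4 (2.33, 2.57, 2.64 and 2.76) and lower in siSETD2 (-0.59). The part of this response in the changes of the members was not tested.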

How the data were processed

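Expression was measured in NCCIT cells on 12 Affymetrix Human Gene ST 1.0 arrays, 2 for each of 6 groups, which were taken from the labels. The log2 values come from a single table that the authors deposited, in which each of 33297 transcript clusters has 1 value for each array (columns not used: 0). Per the labels, GCRMA and Partek were used, with versions not given in the sources used here, so background correction and normalization between arrays precede these values. A re-analysis is named in the labels of both siNTC arrays and of no other array. Whether the siNTC arrays were run together with those of the knockdowns is not given in the sources used here.

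Gene names are those of the array's annotation, brought up to date through the gene number in RefSeq (GRCh38.p14). Of them, 19460 have 1 gene (19429 matched), 1754 several and 12083 none listed. The brightest cluster stood for its gene (769 genes have several), which gave 18417 genes, with no filter on dim ones. Group means were fitted to the 12 arrays with limma 3.58.1 in R 4.3.3 (6 residual degrees of freedom), followed by empirical Bayes moderation, 12 comparisons and Benjamini-Hochberg adjustment over the 18417 genes. The median standard error against siNTC was 0.08. The fit was tested on simulated data. Plots were made in Python 3.11.15 with matplotlib 3.10.9.

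The members, lists and alternatives were chosen with earlier results of these data known. All members are accounted for. Values of each array are given for called members and PFKFB3, PFKFB4, BNIP3 and ADM. Only some of the called genes are named per further list, and AK4 and SDHD are not (KRT18 was left out likewise). KDM3A, TPI1 and SLC2A1 were given array values after these had been seen. The alternatives were a fit to the compared groups, a block for the replicate number, other moderation, normalization, centring, filters, clusters, thresholds or reference, and leaving out each array.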

Additional observations from a re-analysis of the deposited data

Results flagged for a closer look

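For 6 members the change in siEED+RNF2 differed from the sum of the changes in siEED and siRNF2, by the interaction term of the limma fit. The interaction was -2.03 for P4HA2, 1.17 for LDHA, -0.86 for ENO2, -0.74 for BNIP3L, -0.65 for PFKFB1 and 0.61 for SLC2A1 on the log2 scale. Over all genes, 3.89% were called above 0 and 7.43% below 0 in this term, so such an interaction was common. SLC2A1 had a log2 change of -0.09 in siEED+RNF2, against -0.15 in siEED and -0.55 in siRNF2. BNIP3L had 0.22 in siEED+RNF2, against 0.44 in siEED and 0.52 in siRNF2. The dual transfection also carried more siRNA and reagent than a single one, which cannot be told apart from an interaction. The cause was not tested.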

How the results depend on the processing

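Of 441 values of the 17 called changes against siNTC under alternatives, 416 kept their direction and call, 22 lost the call and 3 changed sign. The 3 were P4HA2 against the mean of the knockdowns that share no siRNA target, so that for siEED it leaves out siEED+RNF2 (siWDR5 -0.67, siEED -0.15, siSETD2 -0.81). With that reference the members called higher numbered 0 in siEED, 1 in siRNF2 and 2 in siSETD2. Those lower numbered 2 under siWDR5, 1 under siEED, 2 under siRNF2, 2 under siEED+RNF2 and 2 under siSETD2. In siWDR5, all 3 members called higher against siNTC (PFKFB3, BNIP3 and P4HA2) lost that call. Any member called higher there with this reference was thus a different gene. PFKFB3 (0.40) and BNIP3 (0.24) in siWDR5, ENO2 in siEED (0.24) and siRNF2 (0.51), PFKFB1 in siRNF2 (0.30) and BNIP3 in siSETD2 (0.36) then missed the fold limit.

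Of 610 counts of members under alternatives, 543 stayed within 1.5 times and 67 did not. Without a fold limit the counts higher and lower against siNTC were 13 and 4 under siWDR5, 6 and 11 under siEED, 8 and 11 under siRNF2, 8 and 9 under siEED+RNF2, and 16 and 4 under siSETD2. They were 3 and 1 for siEED+RNF2 against siEED, 4 and 2 against siRNF2, 5 and 3 for siRNF2 against siEED, and 16 and 3 for siWDR5 against siEED. For siSETD2 they were 6 and 6 against siWDR5 and 18 and 7 against the mean of the other 4 knockdowns, and 12 were above 0 in the interaction. Over all 18417 genes, in the same order, the counts were 925 and 1605, 1110 and 2088, 1217 and 751, and 1577 and 2130 up to siWDR5 against siEED. They were then 3200 and 2627, 3885 and 3568, and 2667 above 0. At a fold of at least 2 the member counts were 0 and 0 in siWDR5, 1 higher in each other knockdown, and 0 and 0 for siEED+RNF2 against siRNF2 and for siWDR5 against siEED. They were 0 and 1 for siSETD2 against siWDR5 and against the mean of the other 4, and 1 and 1 in the interaction. All genes were not counted at that fold.

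Centring arrays on their median over the genes moved the median change by -0.13 in siRNF2 and by -0.08 to 0.01 in the others. It gave 1 member lower in siEED (LDHA), 3 lower in siRNF2 (TPI1, LDHA and SLC2A1), 1 lower in siEED+RNF2 (KDM3A), 2 higher for siEED+RNF2 against siRNF2, 1 lower for siRNF2 against siEED, and 6 above 0 in the interaction, and PFKFB1 in siRNF2 (0.58) lost its call. Over all genes this centring called 775 higher and 1253 lower in siRNF2, where the deposited values gave 1174 and 701, 502 and 730 in siEED (688 and 485), and 770 and 1414 in siEED+RNF2 (1011 and 1109). Centring over all clusters gave 0 members lower in siWDR5 (PFKFB2 at -0.58) and 1 above 0 in the interaction, and over all genes 1384 higher and 558 lower in siRNF2, and 613 and 483 in siWDR5 (515 and 593 as deposited). Quantile normalization gave 2 higher for siEED+RNF2 against siRNF2, and the mean of a gene's clusters 2 lower in siRNF2.

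Leaving out each array gave 2 to 3 members higher and 0 to 1 lower in siWDR5, 2 and 0 to 1 in siEED, 2 to 3 and 0 to 1 in siEED+RNF2, and no other count in siRNF2 and siSETD2. LDHA was called lower under siEED without siEED replicate 1, and KDM3A lower in siEED+RNF2 without siEED+RNF2 replicate 1 or siNTC replicate 2. For siEED+RNF2 against siRNF2, 1 to 2 were higher, with ALDOC added without siEED+RNF2 replicate 2. For siRNF2 against siEED, 0 to 1 were lower, with LDHA added without siEED replicate 2. For siWDR5 against siEED, 3 to 6 were higher and 1 to 2 lower, with ENO2 added without siWDR5 replicate 1. For siSETD2 against siWDR5, 1 to 2 were lower, and in the interaction 2 to 4 were above 0, with ALDOC and TPI1 added without siEED replicate 2.

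With the replicate number as a block, every count of members stayed as it was (3 higher and 1 lower in siWDR5, for example). The numbers do not pair the arrays: over 15 pairs of groups, deviations of same-numbered arrays correlated between -0.11 and 0.16. Where 1 array of a group was left out, the remaining one was taken to vary like the other groups. With 2 arrays per group and a standard error near 0.08, log2 changes close to 0.58, such as those of PFKFB2 and BNIP3 in siWDR5, lay on either side of the limit with 1 array more or less.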
